A study of Caenorhabditis elegans with 12 samples.

Results

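FMRFamide-like peptides of C. elegans are encoded by the flp genes. A flp precursor is cut at basic residues, trimmed and amidated in dense core vesicles, and the released peptides act mostly on G protein-coupled receptors of other cells. Different flp genes are used by different sensory neurons, interneurons and motor neurons, and their peptides are known for roles in egg laying, feeding, oxygen responses, sleep and locomotion.

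The flp genes were taken as every gene whose symbol in the array's probe annotation begins with flp-, using probe sets annotated to a single gene and, for each gene, the one with the highest mean over the 12 arrays. This gave 25 genes out of 17118 on the array: flp-1 to flp-19, flp-21 to flp-24, flp-27 and flp-32. They had 32 probe sets in all, and 5 genes (flp-1, flp-2, flp-8, flp-15 and flp-19) had more than 1. Of the chosen probe sets, 8 (those of flp-1, flp-6, flp-9, flp-11, flp-12, flp-15, flp-18 and flp-21) have names ending in _s_at or _x_at, a type that can bind related transcripts. The RefSeq annotation lists 6 further flp genes (flp-20, flp-25, flp-26, flp-28, flp-33 and flp-34), which were not analysed here.

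The samples were embryonic cells that were dissociated, cultured for 24 h and sorted by flow cytometry on a GFP transgene. There were 4 groups of 3 Affymetrix arrays: GFP+ cells of a mir-124 mutant, GFP- cells of that mutant, GFP+ cells of wild-type and GFP- cells of wild-type. In all groups GFP was driven by the mir-124 promoter. The transgene was injected together with a lin-15 rescue plasmid into lin-15(n765) worms, integrated by X-ray irradiation and outcrossed 2 times to N2, and worms were grown at 20 °C. The sources used here do not name the mutant allele, and no probe set measures mir-124 itself, so the mutation was not checked. GFP+ is what the promoter and the sort make it: a mixture of the cells that used this promoter, not a single neuron type. Each sample held 500000 sorted cells, whose RNA, about 15 ng, was amplified before labelling. The triplicates are described as biological, but separate cultures or sorting days are not stated in the sources used here, and p-values then cover only the spread among these arrays, which may be technical.

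Values are deposited log2 signals, on which a difference of 1 is 2-fold, and levels of genes are not compared between probe sets. The order of mean signals served to choose the probe set of a gene and some of the genes shown on every array and, in 1 alternative, to drop dim probe sets. In a bulk sample, fewer cells of a type and less RNA per cell cannot be told apart, so a lower signal can be either. Tests were made with limma, 2-sided, and a gene was called at a Benjamini-Hochberg adjusted p under 0.05 over all 22548 probe sets.

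The pair of wild-type arrays numbered 3 stood apart, and one of them, the library labelled GFP-, went against its label. Its correlation was 0.977 with the GFP+ array of the same number but 0.893 to 0.903 with replicates 1 and 2 of its own group. Within groups, the other 10 arrays correlated at 0.968 to 0.991. In both arrays the 3' probe sets of 8 control RNAs exceeded the middle ones by more (3.53 and 3.56 log2 units) than in the other 10 arrays (1.64 to 2.18). The flp calls are therefore given for all 12 arrays and for the 10 arrays without this pair. With 12 arrays no flp gene and no gene of the lists below was called between the wild-type fractions (limma adjusted p of the flp genes 0.253 to 0.985), so every wild-type call below rests on leaving out the pair or its GFP- array. Markers of several kinds of cell were set beside them for the 10 arrays, for 3 kinds as mean signals over each list. The 5 GFP+ arrays had 7.823 to 8.377 for 18 ciliated sensory neuron markers, against 4.971 to 5.18 for the 5 GFP- arrays, and 18 of 18 were called higher in GFP+ cells of each strain (13 in the mutant and 0 in wild-type with 12 arrays). For 15 pan-neuronal markers the GFP+ arrays had 9.25 to 9.539, against 7.822 to 8.246 for the GFP- arrays, with 13 called higher in the mutant and 12 in wild-type (10 and 0 with 12 arrays). For 12 body wall muscle markers the GFP+ arrays had 7.013 to 7.557, against 9.655 to 10.47 for the GFP- arrays, with 12 of 12 called lower in each strain (9 in the mutant and 0 in wild-type with 12 arrays). Of 10 hypodermis markers 7 were called lower in the mutant and 5 in wild-type with 10 arrays, and 0 higher. Of 10 intestine markers 5 and 4 were lower, and 1 and 0 higher. Of 7 genes listed as glia markers 2 and 1 were lower, and 2 and 1 higher. The list was mixed: che-12 had 9.01 to 9.56 in GFP+ and 5.63 to 6.53 in GFP- arrays, while daf-6 had 6.48 to 7.05 and 7.83 to 8.5. It is not read as a measure of glia. Of all genes 14.3% were called higher and 14.6% lower in the mutant with 10 arrays, and 8.78% and 8.07% in wild-type. With 12 arrays the shares were 6.36% and 6.6% in the mutant. The part of these cell types in the results below was not tested.

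Among the flp genes, the library labelled wild-type GFP- replicate 3 lay nearer the wild-type GFP+ mean of replicates 1 and 2 than the GFP- mean for 20 of 25 flp genes, and above both other wild-type GFP- arrays for 23. It was nearer the GFP- mean for flp-1, flp-10, flp-11, flp-17 and flp-23. Its partner, wild-type GFP+ replicate 3, was above both other wild-type GFP+ arrays for 22 flp genes. The shares of all genes for these counts were not computed, so the counts are not read as particular to flp genes. The median flp gene was 1.39 log2 units higher in replicate 3 than in replicates 1 and 2 among GFP- arrays, and 0.9 higher among GFP+ arrays, whereas the median over all genes was -0.05 and 0.09. No sample was moved to another group.

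**Figure D1:**
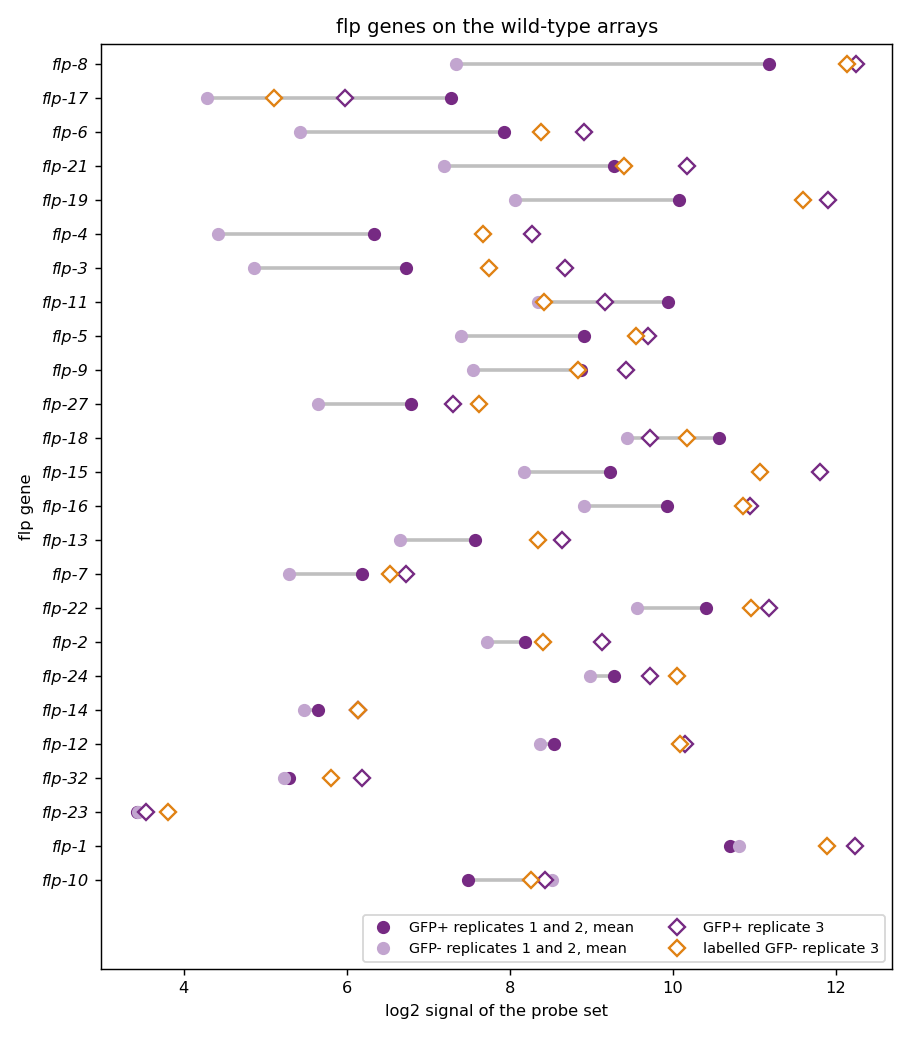
Log2 signal of 25 flp genes (rows) on the wild-type arrays. Filled circles are means of replicates 1 and 2 (dark GFP+, pale GFP-), joined by a line, and open diamonds are replicate 3 (purple GFP+, orange the library labelled GFP-); for flp-8 both diamonds, 12.25 and 12.13, lie beyond the GFP+ mean of 11.18, while for flp-17 both lie between the means.

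GFP+ against GFP- cells of the mutant asked which flp genes mark the cells with mir-124 promoter activity. With 12 arrays, flp-6, flp-8, flp-17 and flp-21 were higher in GFP+ cells and no flp gene was lower, that is 4 of 25 against 6.36% of all genes called higher and 6.6% called lower. At an unadjusted p under 0.05 there were 14 of 25, against 29% of all genes. Without the wild-type replicate 3 pair, 15 flp genes were higher (14.3% of all genes) and 1, flp-10, was lower (14.6% of all genes). The differences in the mutant are the same in both fits, because the pair is not in these groups. It enters only the shared spread, and the median standard error of the 25 differences was 0.213 without it and 0.461 with it. The 6 mutant arrays alone gave 14 higher and 1 lower, and the replicate number as a block within strain, on 12 arrays, gave 15 higher (11.2% of all genes) and 1 lower (10.4% of all genes). The block kept the 4 calls and added 12, those of flp-2, flp-3, flp-4, flp-7, flp-9, flp-10, flp-13, flp-15, flp-16, flp-19, flp-22 and flp-27 (adjusted p = 0.0197 to 0.0472). The 12-array count was 0 without mutant GFP+ replicate 1, GFP+ replicate 2, GFP- replicate 1 or GFP- replicate 3, and 1 without mutant GFP+ replicate 3. It was 2 without mutant GFP- replicate 2, wild-type GFP+ replicate 1 or wild-type GFP+ replicate 2, and 14 without wild-type GFP- replicate 3 alone. In the 10-array fit, leaving out 1 array at a time gave 12 to 18, and 12 of the 16 calls held in all 10 settings. The same block on 10 arrays, chosen after seeing the data, gave 18 higher (17.6% of all genes) and 1 lower (19.4% of all genes), with flp-2, flp-11 and flp-18 added and none lost. Shares of all genes are not given for the 6 mutant arrays alone or for fits without 1 array. Those counts are not read as particular to flp genes.

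The same comparison in wild-type called no flp gene with 12 arrays by limma. At an unadjusted p under 0.05 there were 7 of 25, against 12.8% of all genes, and only 0.00584% of all genes passed after adjustment. With 10 arrays, 13 flp genes were higher (8.78% of all genes) and 1, again flp-10, was lower (8.07% of all genes). The count was 13 without the library labelled wild-type GFP- replicate 3 alone. In the 10-array fit it was 8 or 9 without any 1 of the 4 wild-type arrays, which leaves 1 array in a group and takes its spread from the others. Of the 14 calls, 8 (flp-3, flp-4, flp-5, flp-6, flp-8, flp-15, flp-19 and flp-21) held in all 10 such settings. The block within strain called 0 flp genes and 0% of all genes with 12 arrays. With 10 arrays it called 17 higher (12% of all genes) and 1 lower (12.7% of all genes), with flp-9, flp-16, flp-18 and flp-22 added and none lost. In the 10-array fit without a block 12 flp genes were higher in both strains, and flp-10 was lower in both. The share of all genes called in both strains was not computed, so this overlap is not read as particular to flp genes. A further 3, flp-9, flp-16 and flp-22, passed in the mutant but not in wild-type, and flp-11 in wild-type but not in the mutant. With the block these 4 passed in both strains. None passed the interaction test of the difference between the strains (limma adjusted p = 1 without the block). The median flp difference was 0.94 in the mutant and 1.05 in wild-type with 10 arrays (0.7 with 12), while the median over all genes was between -0.02 and 0.01.

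**Figure D2:**
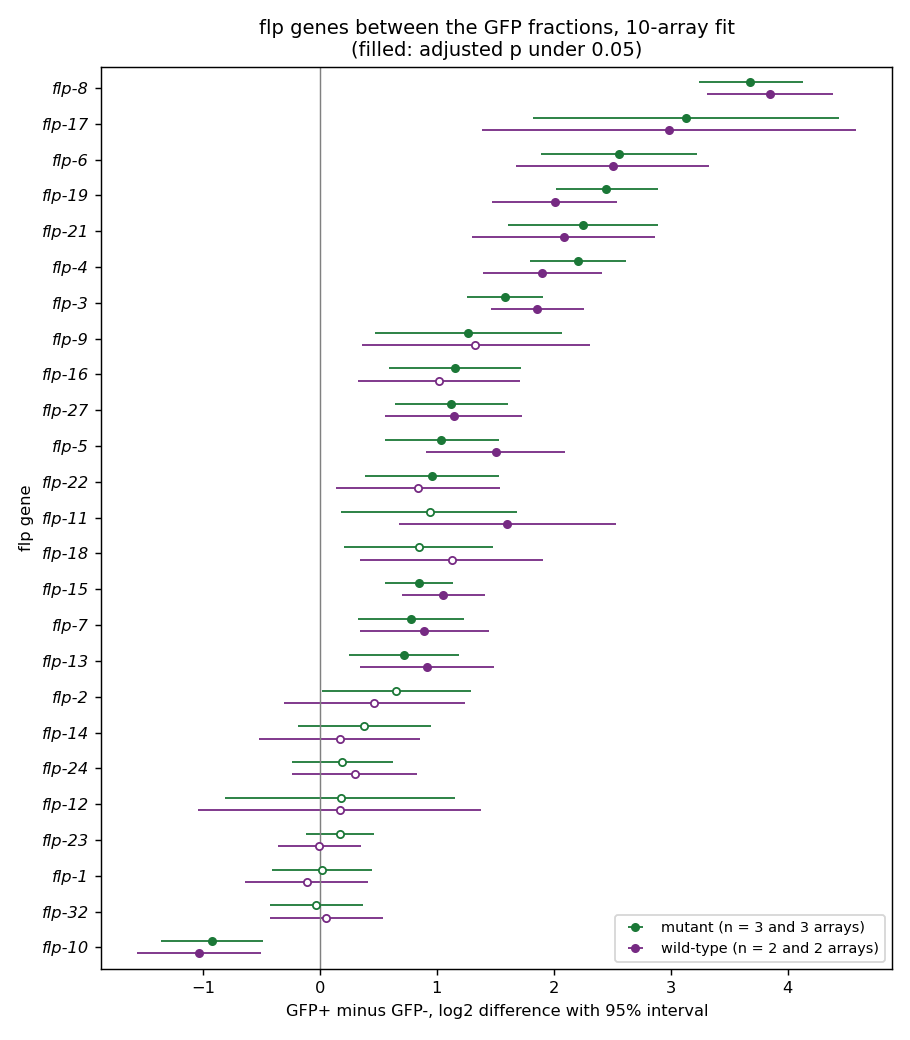
GFP+ minus GFP- log2 difference of each flp gene (points) with its 95% interval (bars) in the 10-array fit, green for the mutant and purple for wild-type; filled points passed an adjusted p of 0.05. Values run from -1.03 for flp-10 to 3.85 for flp-8, and flp-10 is the only filled point left of 0.

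**Figure D3:**
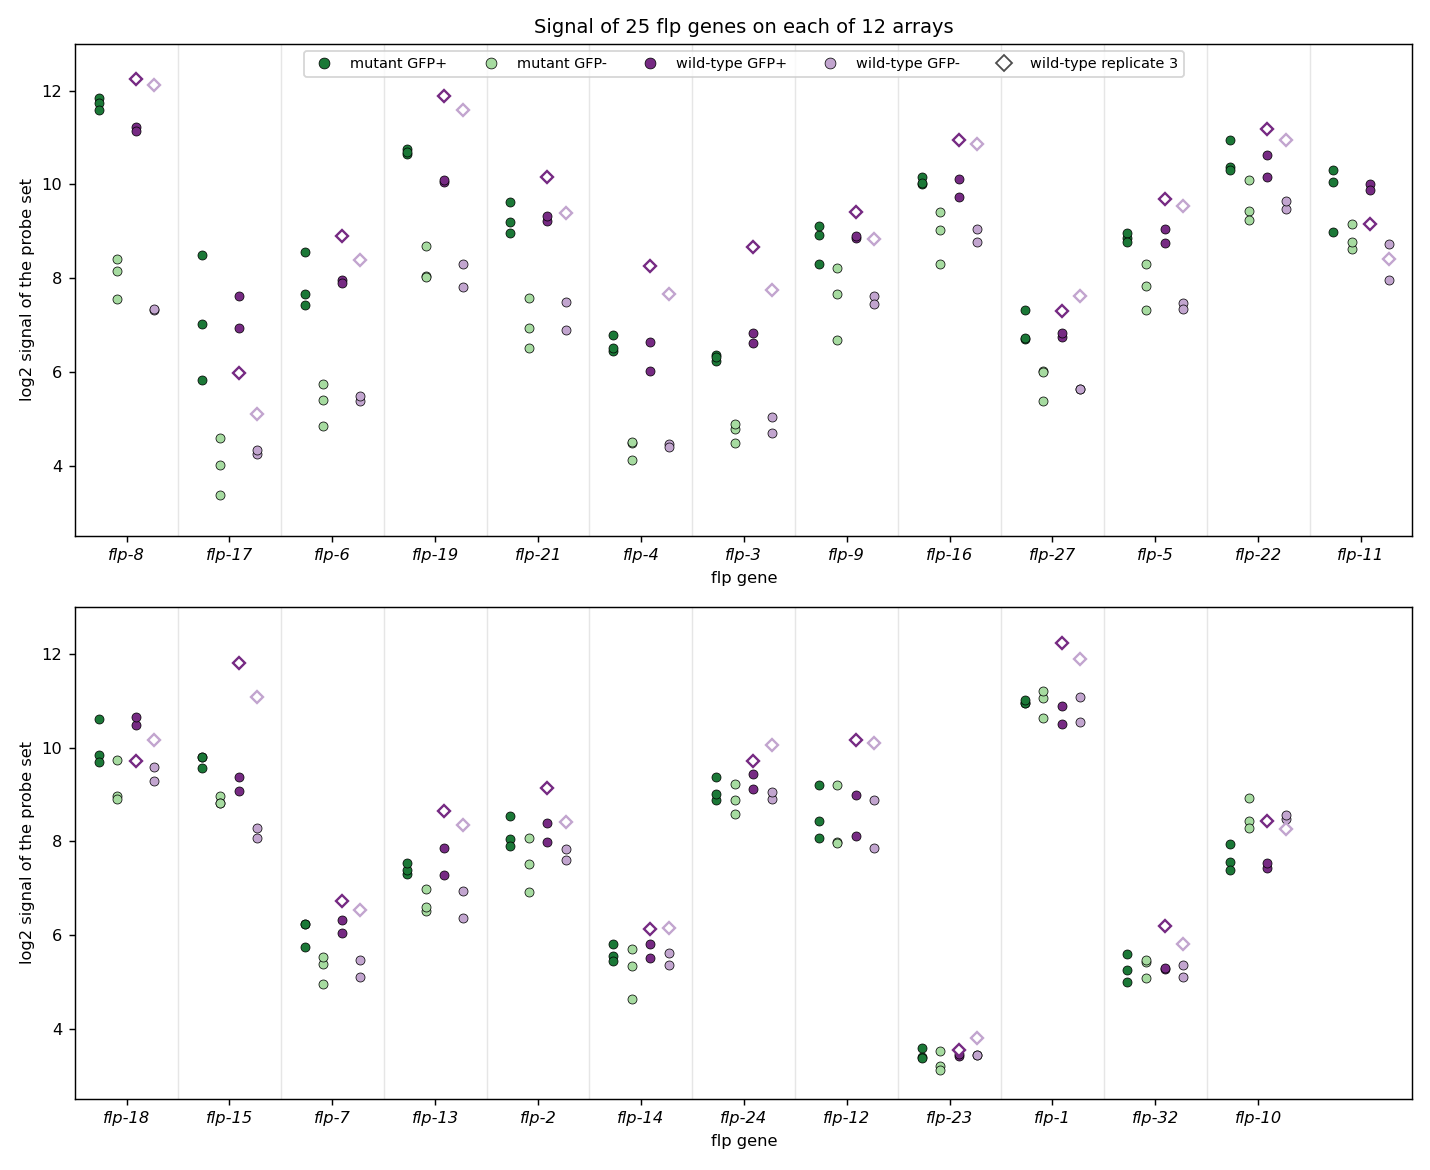
Log2 signal of 25 flp genes on each of 12 arrays, with mutant GFP+, mutant GFP-, wild-type GFP+ and wild-type GFP- side by side for each gene and wild-type replicate 3 as open diamonds. Within each strain the GFP+ and GFP- arrays of flp-8 and flp-4 are apart except for the diamonds, and those of flp-1, flp-12 and flp-32 overlap.

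Descriptive lists of flp genes by reported neurons were made here, and were not checked for completeness or for genes reported in both kinds of neuron. The first held 10 flp genes reported in ciliated or gas-sensing sensory neurons. With 10 arrays 9 of them were higher in GFP+ cells and 1 was lower, in each strain. Of all genes 14.3% were called higher and 14.6% lower in the mutant, and 8.78% and 8.07% in wild-type. The median difference of the 10 genes was 2.23 in the mutant and 1.96 in wild-type. The list was made with earlier results of these data known, so its counts and medians are not read as a test of it. With 12 arrays and no replicate block 4 were called higher in the mutant (6.36% of all genes) and 0 called in wild-type. Values are given below in the order of replicates 1, 2 and 3, so that the third wild-type value is always that of the pair that stood apart.

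flp-8, reported in the oxygen-sensing URX neurons, had 11.85, 11.73 and 11.59 in mutant GFP+ cells, against 7.56, 8.40 and 8.16 in mutant GFP- cells. Wild-type cells had 11.22, 11.14 and 12.25 in the GFP+ fraction, against 7.32, 7.35 and 12.13 in the GFP- fraction. Apart from the last array, every GFP+ value exceeded every GFP- value. The mutant difference was 3.68 ± 0.196 (SE, 12.9-fold, adjusted p = 2.91e-06) with 10 arrays and 3.68 ± 1.04 (adjusted p = 0.0451) with 12. The wild-type difference was 3.85 ± 0.24 (adjusted p = 2e-05) with 10 arrays and 2.61 ± 1.04 (adjusted p = 0.36) with 12. A second flp-8 probe set was also called, with 3.55 ± 0.257 in the mutant and 3 ± 0.314 in wild-type (adjusted p = 1.53e-05 and 0.000252, 10 arrays). The 9 gas-sensing neuron markers had a mean of 6.408 to 6.822 in the GFP+ arrays and 4.821 to 4.949 in the GFP- arrays of the 10-array fit. Of these markers 9 of 9 were called higher in the mutant (14.3% of all genes) and 7 in wild-type (8.78% of all genes). Their part in the flp-8 result was not tested.

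flp-17 encodes peptides of the carbon dioxide-sensing BAG neurons that act on the receptor EGL-6 to inhibit egg laying. It had 7.02, 8.5 and 5.83 in mutant GFP+ cells, against 4.01, 4.59 and 3.37 in mutant GFP- cells. Wild-type GFP+ cells had 7.62, 6.94 and 5.98, against 4.25, 4.33 and 5.11 in wild-type GFP- cells. The fractions did not overlap in either strain, the third pair included, yet the GFP+ arrays spread more than those of any other flp gene in the mutant. The difference was 3.13 ± 0.58 in the mutant (adjusted p = 0.00356) and 2.99 ± 0.711 in wild-type (adjusted p = 0.02) with 10 arrays. With 12 arrays it was 3.13 ± 0.636 (adjusted p = 0.0178) and 2.28 ± 0.636 (adjusted p = 0.255). The wild-type call of the 10-array fit was lost without any 1 of its 4 wild-type arrays (adjusted p = 0.0628 to 0.127).

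flp-10 peptides act with those of flp-17 at EGL-6, and flp-10 has been reported in neurons and in cells of the uterus and vulva. It was the one flp gene lower in GFP+ cells, with 7.56, 7.39 and 7.94 in mutant GFP+ cells, against 8.44, 8.29 and 8.93 in mutant GFP- cells. In wild-type the values were 7.43, 7.54 and 8.43 in GFP+ cells, against 8.48, 8.56 and 8.26 in GFP- cells. The mutant fractions did not overlap, and in wild-type both arrays of the third pair lay just below the other GFP- values. With 10 arrays the difference was -0.92 ± 0.192 in the mutant (adjusted p = 0.00644) and -1.03 ± 0.235 in wild-type (adjusted p = 0.0166). With 12 arrays and no replicate block neither passed. The difference was then -0.92 ± 0.275 in the mutant and -0.63 ± 0.275 in wild-type (limma adjusted p = 0.0542 and 0.399). With the replicate block within strain on 12 arrays, only the mutant difference passed (limma adjusted p = 0.0422). The wild-type call was lost without any 1 of the 4 wild-type arrays (adjusted p = 0.0684 to 0.1). With 10 arrays the 2 precursors of EGL-6 ligands differed in opposite directions between the same fractions, and egl-6 itself was higher in GFP+ cells by 0.9 ± 0.18 in the mutant and by 0.95 ± 0.22 in wild-type (adjusted p = 0.00508 and 0.0175, 10 arrays). With 12 arrays egl-6 was not called, with 0.9 ± 0.411 in the mutant and 0.68 ± 0.411 in wild-type (adjusted p = 0.186 and 0.545).

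flp-6, reported in the thermosensory AFD neurons among others, had 7.43, 8.55 and 7.66 in mutant GFP+ cells, against 4.84, 5.74 and 5.39 in mutant GFP- cells. Wild-type values of flp-6 were 7.96, 7.90 and 8.91 in GFP+ cells, against 5.37, 5.48 and 8.38 in GFP- cells. The fractions did not overlap in the mutant, nor in wild-type replicates 1 and 2. The difference was 2.56 ± 0.298 in the mutant (adjusted p = 0.000256) and 2.51 ± 0.365 in wild-type (adjusted p = 0.00168) with 10 arrays. With 12 arrays it was 2.56 ± 0.706 (adjusted p = 0.0424) and 1.85 ± 0.706 (adjusted p = 0.349).

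flp-21 encodes a ligand of the receptor NPR-1, which acts in aggregation and oxygen responses. It had 9.19, 9.63 and 8.96 in mutant GFP+ cells, against 6.51, 7.58 and 6.94 in mutant GFP- cells. Wild-type GFP+ cells had 9.23, 9.33 and 10.17, against 6.89, 7.50 and 9.40 in wild-type GFP- cells. Only the third GFP- array reached the GFP+ range. The difference was 2.25 ± 0.284 in the mutant and 2.09 ± 0.348 in wild-type with 10 arrays (adjusted p = 0.000419 and 0.00346), and 2.25 ± 0.564 and 1.65 ± 0.564 with 12 (adjusted p = 0.0313 and 0.315).

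flp-19, reported in URX and BAG neurons among others, had 10.76, 10.66 and 10.70 in mutant GFP+ cells, against 8.05, 8.69 and 8.03 in mutant GFP- cells. Wild-type cells had flp-19 values of 10.06, 10.09 and 11.90 in the GFP+ fraction, against 8.31, 7.82 and 11.59 in the GFP- fraction. The spread within mutant GFP+ arrays was among the narrowest here, and the third wild-type pair was higher than all other arrays. The difference was 2.45 ± 0.193 in the mutant and 2.01 ± 0.237 in wild-type with 10 arrays (adjusted p = 2.47e-05 and 0.000495). With 12 arrays and no replicate block the adjusted p was 0.0866 in the mutant, and the wild-type difference was 1.44 ± 0.844 (adjusted p = 0.526), while a second flp-19 probe set passed in the mutant (2.12 ± 0.569, adjusted p = 0.0383). With the replicate block within strain on 12 arrays, the first probe set passed in the mutant (limma adjusted p = 0.0197) and not in wild-type.

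flp-4, reported in the phasmid and AWC sensory neurons, had 6.45, 6.51 and 6.78 in mutant GFP+ cells, against 4.48, 4.50 and 4.12 in mutant GFP- cells. For flp-4 the wild-type values were 6.02, 6.63 and 8.27 in GFP+ cells, against 4.46, 4.39 and 7.67 in GFP- cells. flp-3, reported in the IL1 neurons of the head, had 6.23, 6.35 and 6.32 in mutant GFP+ cells, against 4.77, 4.89 and 4.48 in mutant GFP- cells. Both genes were separated between the mutant fractions by more than the spread of either fraction. In wild-type flp-3 had 6.82, 6.62 and 8.67 in GFP+ cells, against 5.03, 4.69 and 7.74 in GFP- cells. With 10 arrays flp-4 differed by 2.21 ± 0.182 in the mutant and 1.9 ± 0.222 in wild-type (adjusted p = 3.06e-05 and 0.000466). flp-3 differed by 1.58 ± 0.145 in the mutant and 1.86 ± 0.178 in wild-type (adjusted p = 6.1e-05 and 0.000151). Neither passed with 12 arrays and no replicate block, with mutant limma adjusted p = 0.102 for flp-4 and 0.196 for flp-3. The wild-type differences there were 1.47 ± 0.805 and 1.55 ± 0.734 (limma adjusted p = 0.495 and 0.434). With the replicate block within strain on 12 arrays, both passed in the mutant (limma adjusted p = 0.0197 each) and not in wild-type. In the RefSeq gene order flp-3 and flp-2 are adjacent protein-coding genes, and flp-2 was not called in either strain without a replicate block.

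flp-5, reported in chemosensory and pharyngeal neurons, had 8.86, 8.96 and 8.78 in mutant GFP+ cells, against 7.84, 8.30 and 7.33 in mutant GFP- cells. For flp-5 wild-type GFP+ cells had 8.76, 9.05 and 9.69, against 7.46, 7.35 and 9.54 in wild-type GFP- cells. flp-13, known for peptides that promote sleep through the receptor DMSR-1, had 7.29, 7.38 and 7.54 in mutant GFP+ cells, against 6.5, 6.98 and 6.59 in mutant GFP- cells. For neither gene did the mutant fractions overlap. In wild-type flp-13 had 7.28, 7.86 and 8.64 in GFP+ cells, against 6.37, 6.93 and 8.34 in GFP- cells. The flp-5 difference was 1.04 ± 0.216 in the mutant and 1.51 ± 0.265 in wild-type (adjusted p = 0.00629 and 0.00451, 10 arrays). That of flp-13 was 0.72 ± 0.209 in the mutant and 0.92 ± 0.256 in wild-type (adjusted p = 0.0307 and 0.039, 10 arrays). The flp-13 call held in 5 of the 10 settings that leave out 1 array in each strain. In the mutant only leaving out GFP- replicate 2 kept it among the 6 mutant arrays (otherwise adjusted p = 0.0566 to 0.0988). In wild-type it was lost without any mutant GFP+ array, wild-type GFP+ replicate 2 or GFP- replicate 1 (adjusted p = 0.0515 to 0.257). Neither gene passed with 12 arrays and no replicate block, with mutant limma adjusted p = 0.229 for flp-5 and 0.368 for flp-13. The wild-type differences there were 1.05 ± 0.517 and 0.71 ± 0.461 (limma adjusted p = 0.449 and 0.572). With the replicate block within strain on 12 arrays, flp-13 passed in the mutant (limma adjusted p = 0.0355) and flp-5 did not (0.0535). Neither passed in wild-type.

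The second list held 8 measured flp genes placed mainly in interneurons, motor neurons or touch neurons (flp-1, flp-2, flp-7, flp-11, flp-12, flp-18, flp-22 and flp-24). Without a replicate block 2 of these were called in each strain with 10 arrays, and 0 with 12 arrays. They were flp-7 and flp-22 in the mutant and flp-7 and flp-11 in wild-type, all higher in GFP+ cells. Of all genes 14.3% were called higher in the mutant and 8.78% in wild-type, and a count of 2 among 8 genes is not read as a result about the list. Their median difference was 0.72 in the mutant and 0.65 in wild-type. The GFP+ arrays had a mean of 6.875 to 7.358 over 8 touch receptor neuron markers, against 7.437 to 7.666 for the GFP- arrays, and 7.258 to 7.667 over 10 motor neuron and transmitter markers, against 6.32 to 7.094 (10-array fit). Of the touch markers 1 was called higher and 5 lower in the mutant, and 1 higher and 3 lower in wild-type. The shares of all genes called lower were 14.6% and 8.07%. Of the motor neuron and transmitter markers 3 were called higher in the mutant (14.3% of all genes) and 1 in wild-type (8.78% of all genes). Only eat-4 (GFP+ 9.06 to 9.65, GFP- 5.89 to 6.78) and unc-47 (8.27 to 8.93 and 7.1 to 8.17) had GFP+ arrays all above the GFP- arrays. The ranges of the other markers of that list, such as unc-3 and unc-4, overlapped. Their part in these values was not tested.

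flp-7 encodes ligands of the receptor NPR-22 that act in the control of body fat. It had 6.24, 6.23 and 5.74 in mutant GFP+ cells, against 5.38, 5.52 and 4.96 in mutant GFP- cells. In wild-type flp-7 had 6.32, 6.05 and 6.72 in GFP+ cells, against 5.46, 5.11 and 6.53 in GFP- cells. Its lowest mutant GFP+ array was little above its highest GFP- array. The difference was 0.78 ± 0.2 in the mutant and 0.89 ± 0.245 in wild-type (adjusted p = 0.0175 and 0.0362, 10 arrays), and the call held in 8 and 4 of the 10 settings that leave out 1 array. In the mutant it was lost without GFP+ replicate 1 or 2 (adjusted p = 0.0653 and 0.067), and in wild-type without mutant replicate 1 of either fraction or any wild-type array (0.0502 to 0.206). With 12 arrays and no replicate block the mutant adjusted p was 0.167, and the wild-type difference was 0.66 ± 0.341 (adjusted p = 0.469). With the replicate block within strain on 12 arrays, flp-7 passed in the mutant (limma adjusted p = 0.0255) and not in wild-type.

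flp-11, the sleep-promoting peptide gene of the RIS interneuron, had 10.06, 10.32 and 8.99 in mutant GFP+ cells, against 8.63, 9.16 and 8.77 in mutant GFP- cells. Wild-type GFP+ cells had 10.00, 9.89 and 9.16 for flp-11, against 8.72, 7.97 and 8.42 in wild-type GFP- cells. The fractions overlapped in the mutant through GFP+ replicate 3 and did not overlap in wild-type, where the third pair was unusual in not being raised. The mutant difference of 0.94 ± 0.335 was not called (adjusted p = 0.0676), and the wild-type one of 1.6 ± 0.41 was (adjusted p = 0.0273, 10 arrays). The interaction was -0.67 ± 0.53 (95% interval -1.86 to 0.53, adjusted p = 1), so a difference between the strains was not shown. With the replicate block within strain the mutant difference passed (0.94 ± 0.242, adjusted p = 0.0216, 10 arrays). With 12 arrays the wild-type adjusted p was 0.253, the lowest of any flp gene in that comparison, and the 10-array call was lost without wild-type GFP+ replicate 1, GFP+ replicate 2 or GFP- replicate 2 (0.131, 0.109 and 0.179).

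flp-22 had 10.38, 10.96 and 10.32 in mutant GFP+ cells, against 9.43, 10.09 and 9.25 in mutant GFP- cells. Wild-type values of flp-22 were 10.16, 10.64 and 11.18 in GFP+ cells, against 9.47, 9.65 and 10.95 in GFP- cells. The mutant fractions were apart by less than the spread within either of them. The difference was 0.96 ± 0.254 in the mutant (adjusted p = 0.0203) and 0.84 ± 0.312 in wild-type (adjusted p = 0.11) with 10 arrays, and 0.96 ± 0.41 in the mutant and 0.64 ± 0.41 in wild-type with 12 (adjusted p = 0.159 and 0.57). With the replicate block within strain the wild-type difference passed (0.84 ± 0.138, adjusted p = 0.00525, 10 arrays). With this block on 12 arrays flp-22 passed in the mutant (limma adjusted p = 0.0197) and not in wild-type. The mutant call of the 10-array fit without a block was lost without GFP+ replicate 2, GFP- replicate 1 or GFP- replicate 3 (adjusted p = 0.0752, 0.0676 and 0.0584).

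flp-1, whose peptides act in locomotion, had 10.96, 10.96 and 11.02 in mutant GFP+ cells, against 11.05, 11.20 and 10.63 in mutant GFP- cells. In wild-type flp-1 had 10.50, 10.89 and 12.23 in GFP+ cells, against 10.55, 11.07 and 11.89 in GFP- cells. GFP+ and GFP- values overlapped in both strains. The difference was 0.02 ± 0.19 in the mutant (95% interval -0.41 to 0.45) and -0.11 ± 0.232 in wild-type (-0.64 to 0.41) with 10 arrays, which leaves room for less than 2-fold either way. With 12 arrays the intervals were -0.94 to 0.97 in the mutant and -0.92 to 0.99 in wild-type. Its 2 other probe sets were not called either, with mutant differences of 0.24 ± 0.215 and 0.37 ± 0.279 (10 arrays).

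The remaining genes of this list were not called in either fit without a replicate block. flp-18, which encodes ligands of NPR-1, NPR-4 and NPR-5, averaged 10.04 ± 0.494 in mutant GFP+ and 9.199 ± 0.472 in mutant GFP- cells (SD, n = 3 each), with limma adjusted p = 0.054 (10 arrays). The GFP+ minus GFP- difference of flp-18 was 0.88, 0.86 and 0.79 in the 3 mutant pairs, and 0.88, 1.37 and -0.44 in the wild-type pairs. In the mutant it varied less from pair to pair than the arrays did within a fraction. With the replicate block within strain it passed in the mutant (0.85 ± 0.125, adjusted p = 0.00208) and in wild-type (1.13 ± 0.154, adjusted p = 0.00235) with 10 arrays, but not with 12 (mutant adjusted p = 0.104). flp-2, whose peptides act through FRPR-18 in arousal, averaged 8.156 ± 0.334 in mutant GFP+ and 7.502 ± 0.57 in mutant GFP- cells (SD, n = 3 each), with limma adjusted p = 0.123 (10 arrays). With the block flp-2 passed in the mutant (0.65 ± 0.164, adjusted p = 0.0193) and not in wild-type (adjusted p = 0.153) with 10 arrays. On 12 arrays the block gave the same calls for flp-2 (limma adjusted p = 0.0435 in the mutant and 0.176 in wild-type). The mutant difference was 0.18 ± 0.437 for flp-12 and 0.19 ± 0.193 for flp-24, a gene of the sleep-inducing ALA neuron (adjusted p = 0.82 and 0.527, 10 arrays). The interval of flp-12 was -0.81 to 1.16, and its arrays ran from 8.06 to 9.19 in mutant GFP+ and from 7.97 to 9.19 in mutant GFP- cells.

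The other 7 flp genes were on neither list. flp-15, which encodes ligands of NPR-3, had 9.79, 9.57 and 9.79 in mutant GFP+ cells, against 8.97, 8.82 and 8.81 in mutant GFP- cells. Wild-type flp-15 values were 9.08, 9.38 and 11.80 in GFP+ cells, against 8.07, 8.28 and 11.07 in GFP- cells. The third pair of flp-15 was more than 2 log2 units above the other wild-type arrays of the same fraction. The difference was 0.85 ± 0.13 in the mutant and 1.05 ± 0.159 in wild-type (adjusted p = 0.00122 and 0.00201, 10 arrays). With 12 arrays and no replicate block the mutant adjusted p was 0.58 and the wild-type difference 0.95 ± 0.815 (adjusted p = 0.691). With the replicate block within strain on 12 arrays, the mutant difference passed (0.85 ± 0.124, limma adjusted p = 0.0197) and the wild-type one did not. Probe sets of flp-15 disagreed on the call of the 10-array fit without a block. One more passed and the other did not, with 0.62 ± 0.297 in the mutant and 0.22 ± 0.364 in wild-type (adjusted p = 0.163 and 0.782).

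flp-9 had 8.93, 9.12 and 8.31 in mutant GFP+ cells, against 7.67, 8.21 and 6.67 in mutant GFP- cells. Its wild-type values were 8.85, 8.90 and 9.42 in GFP+ cells, against 7.63, 7.45 and 8.84 in GFP- cells. The fractions of flp-9 did not overlap in either strain, though the gap was narrow. The difference was 1.27 ± 0.353 in the mutant (adjusted p = 0.0251) and 1.33 ± 0.432 in wild-type (adjusted p = 0.0691) with 10 arrays, and 1.27 ± 0.445 and 1.08 ± 0.445 with 12 (adjusted p = 0.0915 and 0.374). With the replicate block within strain the wild-type difference passed (1.33 ± 0.187, adjusted p = 0.00268, 10 arrays). With this block on 12 arrays flp-9 passed in the mutant (limma adjusted p = 0.0197) and not in wild-type. The mutant call of the 10-array fit without a block was lost without GFP+ replicate 1, GFP+ replicate 2 or GFP- replicate 1 (adjusted p = 0.0779, 0.0914 and 0.0508).

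flp-16 had 10.01, 10.16 and 10.03 in mutant GFP+ cells, against 9.03, 9.41 and 8.30 in mutant GFP- cells. For flp-16, wild-type GFP+ cells had 9.74, 10.11 and 10.94, against 8.78, 9.04 and 10.86 in wild-type GFP- cells. flp-27 had 6.71, 7.33 and 6.72 in mutant GFP+ cells, against 6.01, 5.99 and 5.38 in mutant GFP- cells. For both, the mutant fractions were apart. In wild-type flp-27 had 6.75, 6.82 and 7.30 in GFP+ cells, against 5.64, 5.64 and 7.62 in GFP- cells, the third pair being reversed. The mutant difference was 1.16 ± 0.25 for flp-16 and 1.12 ± 0.213 for flp-27 (adjusted p = 0.00783 and 0.00401, 10 arrays). In wild-type it was 1.02 ± 0.306 for flp-16, which just missed the threshold (adjusted p = 0.0528), and 1.15 ± 0.261 for flp-27 (adjusted p = 0.0166, 10 arrays). With the replicate block within strain the wild-type difference of flp-16 passed (adjusted p = 0.019, 10 arrays). With 12 arrays and no block the mutant adjusted p was 0.177 for flp-16 and 0.152 for flp-27, and the wild-type differences were 0.7 ± 0.515 and 0.66 ± 0.472 (adjusted p = 0.627 and 0.619). With the block on 12 arrays both passed in the mutant (limma adjusted p = 0.0282 and 0.0472) and not in wild-type. The wild-type call of flp-27 was lost without any 1 of the 4 wild-type arrays (adjusted p = 0.0781 to 0.0935).

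The probe sets of flp-14, flp-23 and flp-32, shown for their low signals, did not separate the fractions. flp-23 had 3.40, 3.58 and 3.38 in mutant GFP+ cells, against 3.21, 3.52 and 3.12 in mutant GFP- cells, and flp-32 had 5.26, 5.60 and 4.99 in mutant GFP+ cells, against 5.41, 5.47 and 5.07 in mutant GFP- cells. flp-14 had 5.54, 5.81 and 5.45 in mutant GFP+ cells, against 5.33, 5.70 and 4.62 in mutant GFP- cells. The ranges overlapped for all 3. Wild-type GFP+ values were 3.41, 3.45 and 3.54 for flp-23, 5.27, 5.30 and 6.18 for flp-32 and 5.50, 5.80 and 6.13 for flp-14. Wild-type GFP- values were 3.43, 3.44 and 3.80 for flp-23, 5.10, 5.36 and 5.81 for flp-32 and 5.35, 5.61 and 6.14 for flp-14. The filter that drops the dimmest 25% of probe sets removed flp-23 and no other flp gene. The mutant differences were 0.17 ± 0.129 for flp-23, -0.03 ± 0.176 for flp-32 and 0.38 ± 0.251 for flp-14 (10 arrays).

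Same-numbered GFP+ and GFP- arrays give a view of each pair. In the mutant, GFP+ exceeded GFP- in all 3 pairs for 20 of 25 flp genes (30.5% of all genes) and in 0 pairs for flp-10 (30.9% of all genes). In wild-type it did so in all 3 pairs for 17 flp genes (19.6% of all genes), the third pair included, and 16 did so in all 6 pairs of both strains (12.8% of all genes). In the mutant, 15 flp genes had GFP+ arrays all above the GFP- arrays (21% of all genes) and 1 had them all below (21.3% of all genes). In wild-type 3 flp genes (flp-9, flp-11 and flp-17) had them all above with 12 arrays (5.58% of all genes), and with 10 arrays 19 had them all above (26.9% of all genes) and 1 all below (31.1% of all genes).

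Mutant against wild-type cells of the same fraction asked whether loss of mir-124 changed flp transcripts. No flp gene was called by limma in GFP+ or in GFP- cells, with 12 or with 10 arrays, and few genes of any kind were (0.0175% of all genes in GFP+ and 0.0234% in GFP- cells with 12 arrays, and 0.0234% and 0.0175% with 10). At an unadjusted p under 0.05 there were 0 flp genes in either fraction with 12 arrays (1.08% of all genes in GFP+ and 5.06% in GFP- cells). With 10 arrays there were 4 in GFP+ cells (3.16% of all genes) and 2 in GFP- cells (5.51% of all genes). The 4 were flp-19 (0.63 ± 0.216), flp-8 (0.54 ± 0.219), flp-15 (0.49 ± 0.145) and flp-3 (-0.42 ± 0.162), each at limma adjusted p = 1. The 2 were flp-8 (0.71 ± 0.219, limma adjusted p = 0.878) and flp-15 (0.69 ± 0.145, limma adjusted p = 0.674). Both genes had array values higher in mutant than in wild-type replicates 1 and 2, in GFP+ and in GFP- cells, and in both the third wild-type pair was higher than the mutant. With 12 arrays the difference was 0.19 ± 1.04 for flp-8 and -0.37 ± 0.815 for flp-15 in GFP+ cells, and -0.89 ± 1.04 and -0.28 ± 0.815 in GFP- cells.

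The flp differences between the strains lay between -0.52 and 0.63 in GFP+ cells and between -0.3 and 0.71 in GFP- cells with 10 arrays. A missed threshold does not show that the strains were alike, and the intervals give what remained possible. With 10 arrays the 95% interval stayed within 1 log2 unit either way for 19 of 25 flp genes in GFP+ cells and 20 in GFP- cells. The widest, those of flp-17, were -1.62 to 1.3 and -1.76 to 1.16. With 12 arrays only 5 and 3 genes had such an interval. The direction also turned on the third wild-type pair: with 12 arrays the difference was above 0 for 4 of 25 flp genes in GFP+ cells (43.8% of all genes) and 2 in GFP- cells (47.9% of all genes), with medians of -0.27 and -0.48. With 10 arrays it was above 0 for 11 (53.3% of all genes) and 14 (47.8% of all genes), with medians of -0.02 and 0.

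**Figure D4:**
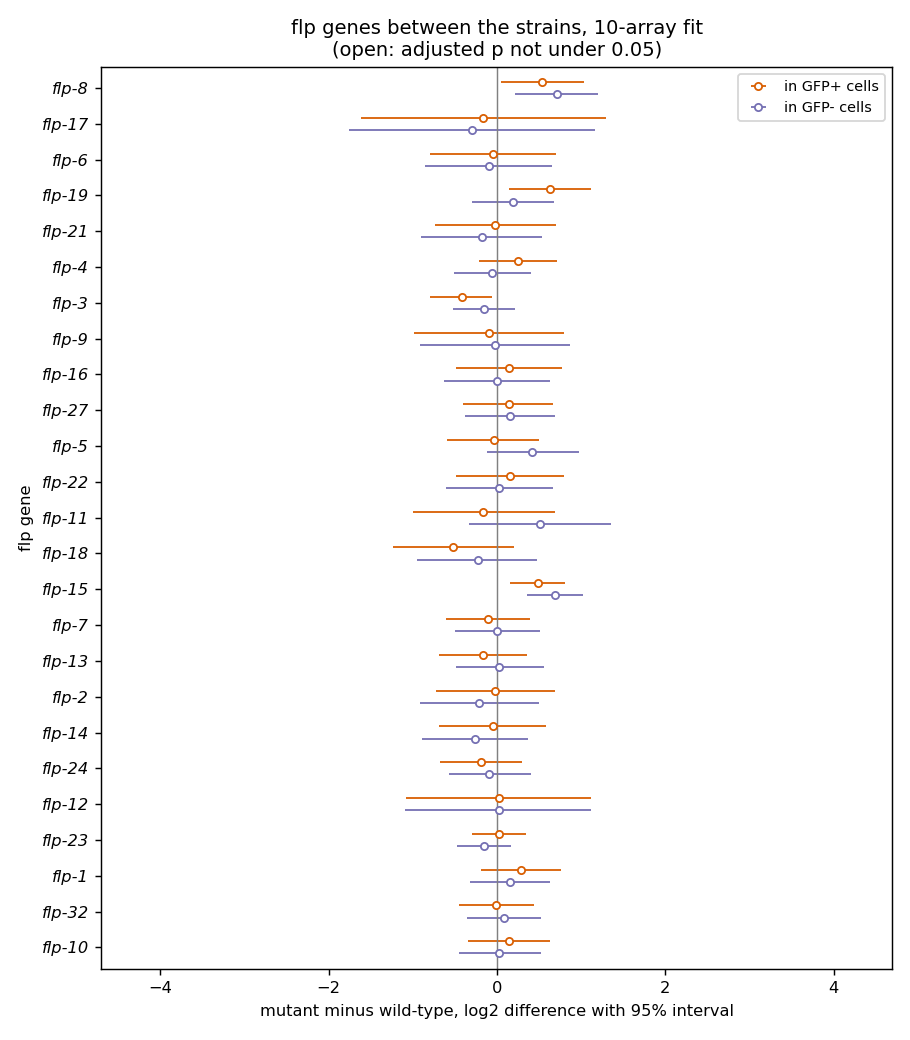
Mutant minus wild-type log2 difference of each flp gene (points) with its 95% interval (bars) in the 10-array fit, orange in GFP+ and violet in GFP- cells. All points lie within 1 log2 unit of 0 and none passed an adjusted p of 0.05; flp-17 has the widest intervals.

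The interaction of strain and fraction, which asks whether the GFP+ minus GFP- difference itself differed between mutant and wild-type, called no flp gene with limma, and 0% of all genes, in either fit. At an unadjusted p under 0.05 there were 0 flp genes too (1.51% of all genes with 12 arrays and 1.24% with 10). With 10 arrays the flp values lay between -0.67 (flp-11) and 0.44 (flp-19), with a median standard error of 0.338. With 12 arrays they lay between -0.38 (flp-11) and 1.08 (flp-8), with a median standard error of 0.652.

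Genes that make and release peptides were described from a list of 22. With 10 arrays 14 were higher (14.3% of all genes) and 1 lower (14.6% of all genes) in mutant GFP+ cells. In wild-type GFP+ cells 12 were higher (8.78% of all genes), and the medians were 1.32 in the mutant and 1.1 in wild-type. With 12 arrays 9 were higher in the mutant (6.36% of all genes) and 0 called in wild-type. Among them egl-3, the PC2-type proprotein convertase, was higher by 2.17 ± 0.186 in GFP+ cells of the mutant and by 1.83 ± 0.228 in those of wild-type. egl-21, the carboxypeptidase E that trims the cut ends, was higher by 2.06 ± 0.17 and 2.11 ± 0.208, and pghm-1, an amidating enzyme, by 2.13 ± 0.268 and 1.97 ± 0.328. tbc-8 and cccp-1, which act in dense core vesicle maturation, were higher by 2.38 ± 0.189 and 1.96 ± 0.193 in mutant GFP+ cells. sbt-1, the 7B2-type partner of the convertase, was 1.78 ± 0.317 higher. The limma adjusted p of these 6 genes lay between 2.55e-05 and 0.0029 in the mutant with 10 arrays, and all 6 passed there with 12 (0.0142 to 0.0218). The 1 lower gene was cpd-1, a carboxypeptidase D type gene (-0.61 ± 0.196, limma adjusted p = 0.0448), which did not pass with 12 arrays (adjusted p = 0.131). By contrast, the convertase gene kpc-1 (0.37 ± 0.141) and bli-4 (0.05 ± 0.299) were not called in the mutant (limma adjusted p = 0.0828 and 0.923). Of the 22 genes, 3 (egl-3, ric-19 and unc-31) are also among the pan-neuronal markers.

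Of 15 receptors with known flp ligands, 10 were higher (14.3% of all genes) and 0 lower (14.6% of all genes) in mutant GFP+ cells with 10 arrays. In wild-type GFP+ cells 7 were higher (8.78% of all genes), and the medians were 0.88 in the mutant and 0.78 in wild-type. With 12 arrays 6 were called higher in the mutant (6.36% of all genes) and 0 in wild-type. npr-3, the receptor of FLP-15 peptides, was higher in GFP+ cells by 2.00 ± 0.219 in the mutant and by 1.82 ± 0.268 in wild-type. npr-1, the receptor of FLP-18 and FLP-21 peptides, was higher by 1.33 ± 0.225 and 1.33 ± 0.275, and frpr-3 by 1.51 ± 0.18 and 1.55 ± 0.22. dmsr-1, a receptor of FLP-13 peptides, was higher by 1.33 ± 0.274 in the mutant and had 0.93 ± 0.336 in wild-type (limma adjusted p = 0.00608 and 0.0992). npr-6 and frpr-4 were higher by 1.28 ± 0.168 and 1.08 ± 0.14 in mutant GFP+ cells. For npr-3, npr-1, frpr-3, npr-6 and frpr-4 the limma adjusted p was between 0.000175 and 0.00214 in the mutant with 10 arrays. With 12 arrays npr-3 did not pass there (adjusted p = 0.054), and the other 4 did. npr-5, a receptor of FLP-18 peptides, and dmsr-7, a receptor of FLP-1 peptides, had 0.27 ± 0.259 and -0.09 ± 0.442 in the mutant (limma adjusted p = 0.516 and 0.911). Neither list had a gene called between the strains in either fit.

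**Figure D5:**
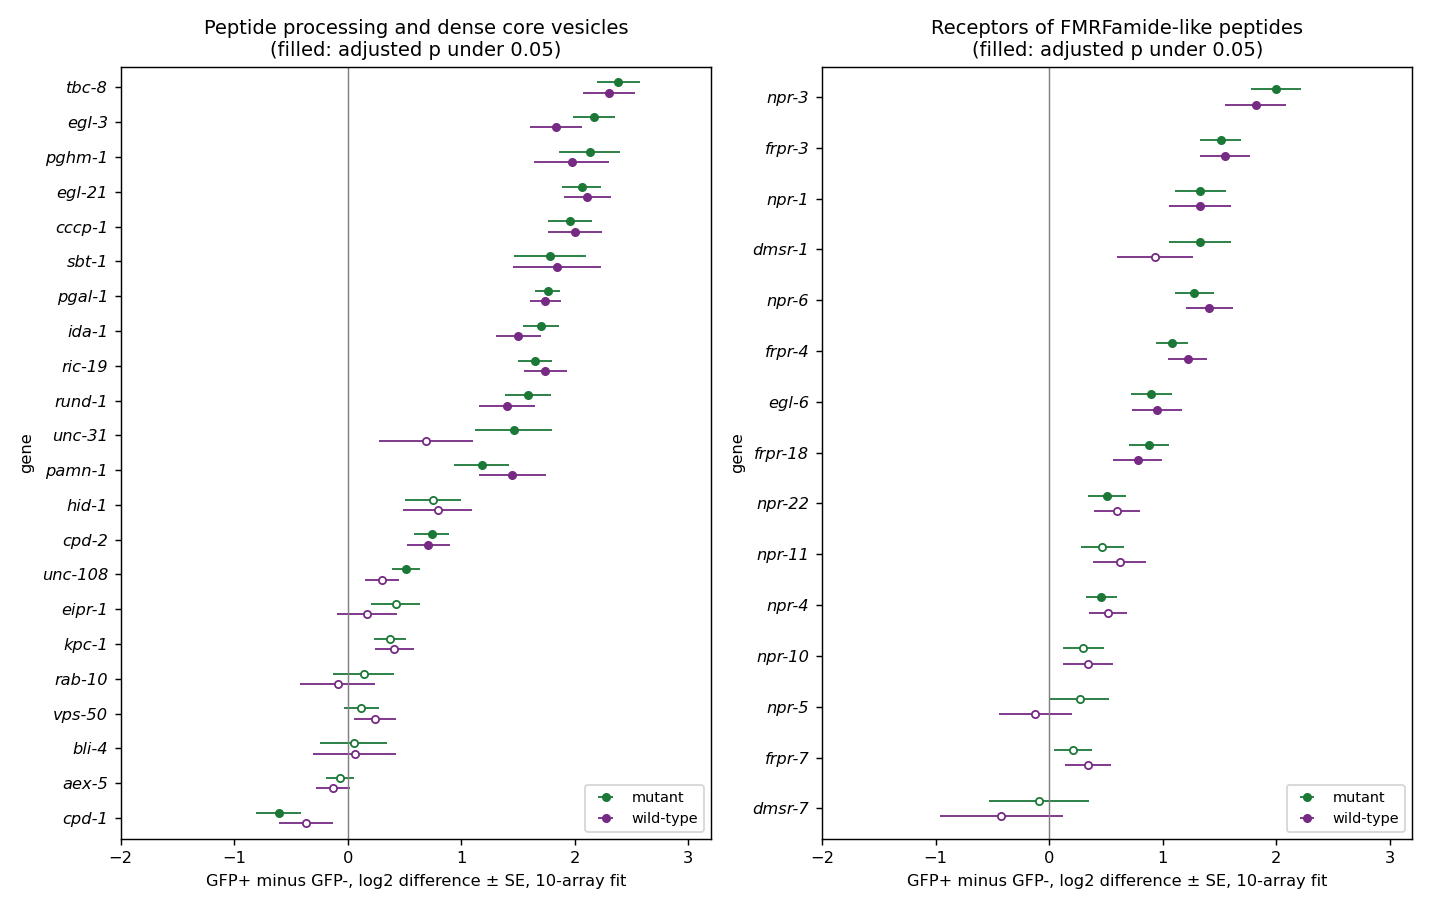
GFP+ minus GFP- log2 difference of 22 genes of peptide processing and dense core vesicles (left) and of 15 receptors of FMRFamide-like peptides (right) in the 10-array fit, green mutant and purple wild-type, bars being standard errors; filled points passed an adjusted p of 0.05. tbc-8 leads the left panel with 2.38 and npr-3 the right panel with 2.00 in the mutant, and cpd-1 is the only filled point below 0.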

How the data were processed

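The deposited table holds 1 log2 value per probe set and array, made by the authors. Per the submitters' processing notes RMA, MAS5, affy and limma were used, with no roles or versions stated, and which of them gave the log2 table is not stated there. No further scaling was applied. Of 22625 probe sets, 77 controls were left out and 22548 tested; 20766 of them had a single gene in the platform's annotation, 887 several and 895 none.

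Group means of the 4 groups were fitted with limma 3.58.1 (R 4.3.3: lmFit, eBayes; 2-sided), with p-values adjusted by Benjamini-Hochberg across all tested probe sets, over all 12 arrays and again over 10, without the wild-type replicate 3 pair. The script was tested on simulated data with added differences and independent noise, without pairing and without arrays that stood apart. That test does not bear on the choice between the 12-array and 10-array fits. The number of arrays limits the precision. Values on every array are given for each flp gene called in any contrast in either fit and for the 3 brightest and 3 dimmest, by mean signal. At most 6 called genes per pathway list, direction and contrast were named, by size, with others added after their values were seen where ligands or enzymes are compared. The members, lists and the 10-array fit were chosen with earlier results of these data known.

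Replicate numbers come from the labels. Deviations of same-numbered GFP+ and GFP- arrays from their group means correlated at 0.36, 0.435 and 0.359 in the mutant and at 0.485, 0.41 and 0.418 in wild-type. Numbers were therefore read as pairing the fractions within a strain. The wild-type group means included the replicate 3 pair, which stood apart in both fractions. The wild-type correlations therefore cannot tell pairing by number from the effect of that pair. Fits with the number as a block within strain are given beside flp results whose call they change. Between strains the correlations were 0.278, 0.185 and 0.229 for GFP+ arrays and 0.232, -0.0696 and -0.0294 for GFP- arrays. Figures used matplotlib 3.10.9. Sequences of members were not used here.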

Additional observations from a re-analysis of the deposited data

How the results depend on the processing

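The count of flp genes called between mutant GFP+ and GFP- cells was 4 with 12 arrays, 16 without the wild-type replicate 3 pair, 15 with only the 6 mutant arrays and 16 with a replicate block within strain. It ran from 0 to 14 when 1 array was left out, and from 12 to 18 when the 10-array fit (16 calls) lost 1 array. In wild-type it was 0 with 12 arrays, with or without the block within strain, 14 without the pair, 0 to 13 without 1 array, and 8 to 17 when the 10-array fit (14 calls) lost 1 array. A plain replicate block gave 5 and 0 with 12 arrays and 19 and 18 with 10; the last 2, and the block within strain on 10 arrays, which also gave 19 and 18, were chosen after seeing the data. Further quantile normalization, a shift to one array median, dropping the dimmest 25% of probe sets, eBayes with a trend and robust option, and the dimmest probe set per gene gave 4 or 5 calls in the mutant and 0 in wild-type. The contrasts between the strains and the interaction stayed at 0 calls in every setting run, and no flp difference called in the 12-array or 10-array fit changed sign. In the 10-array fit the calls of flp-7, flp-9, flp-13 and flp-22 in the mutant, and of flp-7, flp-10, flp-11, flp-13, flp-17 and flp-27 in wild-type, were lost in some settings without 1 array. The cause of the higher count without the pair was not tested beyond the standard errors given above. Where the share of all genes is not given for a setting, in either strain, its count is not read as particular to flp genes. Signal over background was not used here, so no limit on dim probe sets such as that of flp-23 can be given.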
